A study of Homo sapiens with 12 samples.

Results

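Named antisense transcripts were taken from a table of RNA levels in A549 cells, an epithelial line grown from a human lung carcinoma. A row was a member if its gene symbol ended in -AS and a digit and if its level was at least 2 FPKM in any of the 4 groups. FPKM counts fragments per kilobase, scaled by library size, so it is a level corrected for length. By this rule 332 of 1222 rows with such a symbol were members, out of 58671 gene rows in all; 1 symbol, DNAJC9-AS1, stands on 2 rows. The sense gene of a member is the gene named before -AS, and it was used for comparison only. The groups were RNase L knockout cells 6 h after transfection of poly(I:C) at 500 ng/ml (RLKO_PIC), untreated RNase L knockout cells (RLKO), parental cells transfected in the same way (WT_PIC) and untreated parental cells (WT). Each group had 3 samples, 12 in all, and the table gave 1 value per group with no value of a single sample, so no spread between samples can be printed. The p-values and q-values are those of the authors' deposited table, for treated against untreated cells within a line. Whether the samples came from separate cultures, and whether the knockout line is a single clone, is not stated in the labels used here.

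An antisense gene is transcribed from the strand opposite to another gene, often from a promoter that fires in both directions or from inside the other gene. Most such RNAs are not translated, many stay in the nucleus, and some act on the transcription, splicing or stability of the gene across from them. Poly(I:C) is a synthetic double-stranded RNA used in place of viral RNA. In the cytoplasm such RNA induces antiviral genes through RIG-I-like receptors, and it activates the oligoadenylate synthetases, whose product switches on RNase L. RNase L cleaves single-stranded RNA, with a preference for UU and UA dinucleotides.

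Of 5 epithelial markers 4 reached at least 2 FPKM (KRT8 up to 943.5), and EPCAM did not. Of 9 markers of leukocytes, endothelium and fibroblasts 8 stayed under 2 FPKM, and COL1A1 reached 7.17. Log2 changes below are on a scale set by ERCC spike-in RNAs, synthetic RNAs added to every sample, with a pseudocount of 1, so changes of low transcripts are understated. On that scale fewer cells and less RNA per cell cannot be told apart. Strandedness of the libraries was not given in the sources used here. Without strand, reads over exons that a member shares with its sense gene cannot be told apart.

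The starting points of 3 members that were called higher in treated WT cells lie beside the start of their sense gene. Their promoter windows are shown because 10 of the 21 called members have a divergent layout, sharing no base with the sense gene. Each window covers 250 bases before to 50 after the RefSeq start of the antisense gene, in the direction of the antisense strand, on GRCh38.p14. Capitals mark the bases between the start of the sense gene, on the other strand, and the start of the antisense gene, both included. RASAL2-AS1 is at chr1:178093944-178094243 on the minus strand, with 112 such bases. SCAMP1-AS1 is at chr5:78360492-78360791 on the minus strand, with 77 such bases. ZNF674-AS1 is at chrX:46545240-46545539 on the plus strand, with 70 such bases.
RASAL2-AS1: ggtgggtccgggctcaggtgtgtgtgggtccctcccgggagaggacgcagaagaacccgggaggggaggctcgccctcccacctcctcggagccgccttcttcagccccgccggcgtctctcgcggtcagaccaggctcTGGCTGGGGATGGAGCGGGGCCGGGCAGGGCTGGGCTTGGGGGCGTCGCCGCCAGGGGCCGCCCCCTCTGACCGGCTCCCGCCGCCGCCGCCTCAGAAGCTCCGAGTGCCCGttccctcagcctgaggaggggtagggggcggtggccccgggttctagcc
SCAMP1-AS1: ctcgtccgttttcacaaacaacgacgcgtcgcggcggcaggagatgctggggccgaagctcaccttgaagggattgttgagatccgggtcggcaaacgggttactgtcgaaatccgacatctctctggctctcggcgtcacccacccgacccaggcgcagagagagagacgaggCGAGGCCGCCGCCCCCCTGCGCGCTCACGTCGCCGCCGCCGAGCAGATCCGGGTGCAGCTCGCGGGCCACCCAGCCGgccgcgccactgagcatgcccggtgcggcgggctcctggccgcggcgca
ZNF674-AS1: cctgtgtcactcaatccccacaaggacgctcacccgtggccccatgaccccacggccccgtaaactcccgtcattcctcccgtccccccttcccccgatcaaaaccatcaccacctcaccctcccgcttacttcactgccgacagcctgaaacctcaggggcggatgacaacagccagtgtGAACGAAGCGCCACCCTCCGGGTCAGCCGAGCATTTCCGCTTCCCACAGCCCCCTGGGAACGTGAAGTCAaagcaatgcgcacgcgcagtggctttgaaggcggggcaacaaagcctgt
In each of the 3 windows the last capital is the first base of the antisense gene. RASAL2 encodes a GTPase-activating protein of Ras, SCAMP1 a membrane protein of secretory vesicles, and ZNF674 a zinc finger protein with a KRAB domain.

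In parental cells the members were on the whole higher after poly(I:C), and in knockout cells they were slightly lower. The median log2 change of the 332 members was -0.27 in RLKO cells and 0.49 in WT cells. Over all 18342 rows at 2 FPKM or more the medians were -0.27 in RLKO cells and -0.52 in WT cells, and over 11135 protein-coding rows they were -0.26 and -0.78 in the same order of lines. In WT cells 236 members lay above 0 and 96 below, and 86 had a log2 change of at least 1. In RLKO cells 66 members lay above 0 and 266 below. The member's own change in RLKO minus that in WT had a median of -0.78, with 264 members below 0 and 68 above. This median was -0.92 both for lincRNA rows and for antisense-class rows without an -AS symbol, 0.31 for all rows and 0.53 for protein-coding rows, and no difference between the lines was tested.

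These medians describe rows that were chosen by level, and the level limit counted the treated groups too. The limit was met by 161 members in RLKO_PIC, 181 in RLKO, 312 in WT_PIC and 171 in WT cells. It was met in WT_PIC cells only by 120 members, which had to be higher there than in WT cells in FPKM as deposited, and 1 member met it in RLKO_PIC cells only. Among the 202 members that met it in an untreated group, the median log2 change was -0.39 in RLKO and 0.09 in WT cells. Beside the limit, HOXB-AS1 (2.02 FPKM in its highest group) and STARD7-AS1 (2.02) were just inside, and GCC2-AS1 (2.00) and FLG-AS1 (2.00) just outside. WT_PIC was the group with the highest level for 259 members (78.0%), against 78.3% of genes named as divergent transcripts (-DT), 77.2% of antisense-class rows without an -AS symbol, 76.4% of lincRNA rows, 40.1% of all rows and 29% of protein-coding rows at 2 FPKM or more.

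**Figure D1:**
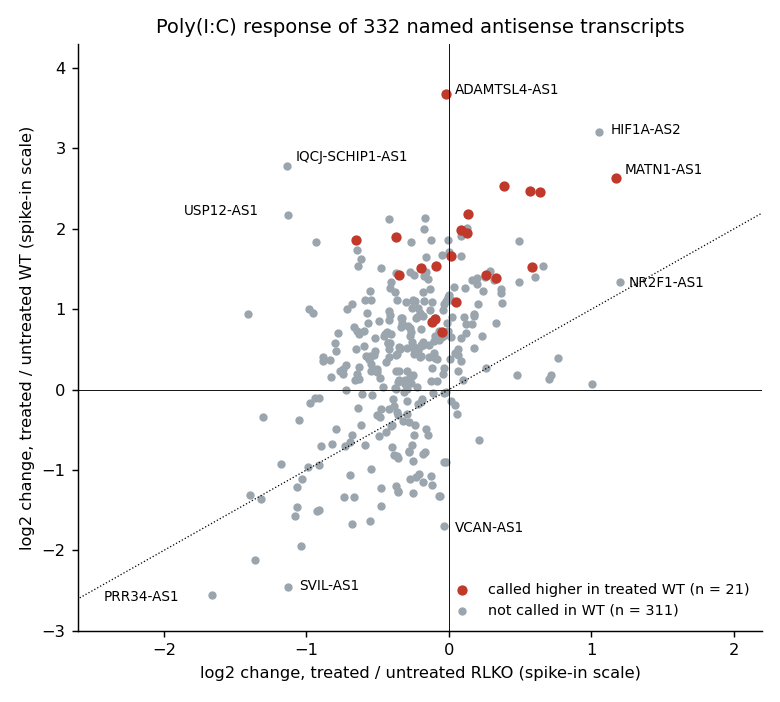
Each point is 1 of the 332 members, with its log2 change in RLKO cells across and in WT cells upward, both treated over untreated on the spike-in scale; the dotted line marks equal changes. The 21 members called higher in treated WT cells (red) lie above that line, with log2 changes in WT cells of 0.72 to 3.68.

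By the q-values of the authors' deposited table (under 0.05), 21 of 332 members were called higher in WT_PIC than in WT cells (6.33%) and 0 were called lower. Over all rows tested at 2 FPKM or more, 4.4% were called higher and 4.16% lower, and over protein-coding rows 3.85% and 3.32%. In RLKO cells 0 of 322 members tested were called in either direction, against 0.638% of all rows called higher and 0.0358% lower. At an unadjusted p under 0.05 in the authors' deposited table (Cuffdiff), 55 members were higher and 4 lower in WT_PIC cells, and 5 were higher and 4 lower in RLKO_PIC cells. Over all 18342 rows at 2 FPKM or more, 1567 were higher and 2133 lower in WT_PIC cells, and 296 higher and 454 lower in RLKO_PIC cells. In WT_PIC cells 208 of 627 lincRNA rows were higher and 20 lower, and of 920 antisense-class rows without an -AS symbol 93 were higher and 1 lower. Since the levels in these groups chose the members, the counts are a description. Of the 21 called members, 6 met the limit in an untreated group, as did 202 of all 332. Rows of the lincRNA class had 20% called higher in WT_PIC cells, rows of the antisense class without an -AS symbol 4.15%, and -DT genes 17.4%, which is 4 of 23. Their median log2 changes in WT cells were 0.66, 0.64 and 0.21. The 25 genes named as intronic transcripts (-IT) had a median of 0.81 and 0 called by Cuffdiff, also 0 at an unadjusted p under 0.05. The median of the named antisense rows, 0.49, lay within the range of these other noncoding groups.

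The member with the highest log2 change in WT cells was ADAMTSL4-AS1 (ENSG00000203804, chr1:150560202-150574552, minus strand), which was at 2.42 FPKM in RLKO_PIC and 2.19 in RLKO cells, against 46.0 in WT_PIC and 1.61 in WT cells. Treated parental cells stood apart from the 3 other groups, and the log2 changes were -0.02 in RLKO and 3.68 in WT cells (q = 0.00319 in the authors' deposited table). ADAMTSL4, which encodes a secreted protein of the ADAMTS-like family, overlaps it tail to tail, and 736 exon bases of the antisense gene lie over exons of the other strand. ADAMTSL4 showed the same order of groups, with 0.494 FPKM in RLKO_PIC, 0.365 in RLKO, 25.8 in WT_PIC and 0.321 in WT cells. The antisense gene also overlaps MCL1, which encodes a BCL2-family protein that blocks apoptosis, on its own strand, with 2 exon bases over exons of that strand. MCL1 was at 132 FPKM in RLKO_PIC and 74.99 in RLKO cells, against 292.5 in WT_PIC and 75.05 in WT cells, and was not called (q = 0.056 in the authors' deposited table). How the reads were divided between these overlapping genes was not tested.

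MATN1-AS1 (ENSG00000186056, chr1:30718504-30726827, plus strand) was at 3.09 FPKM in RLKO_PIC and 0.676 in RLKO cells, against 10.3 in WT_PIC and 0.416 in WT cells. It was higher after poly(I:C) in both lines, with log2 changes of 1.17 in RLKO and 2.64 in WT cells, and was called in WT but not in RLKO cells (q = 0.0018 in WT and 0.234 in RLKO cells in the authors' deposited table). MATN1, a matrilin of cartilage matrix, stayed under 1 FPKM in every group. SRD5A3-AS1 (ENSG00000249700, chr4:55363971-55395847, minus strand) was at 0.687 FPKM in RLKO_PIC and 0.235 in RLKO cells, against 9.21 in WT_PIC and 0.382 in WT cells. Its log2 changes were 0.39 in RLKO and 2.53 in WT cells. Its sense gene SRD5A3, the polyprenol reductase that makes dolichol for N-glycosylation, had the opposite sign in WT cells, with 8.65 FPKM in RLKO_PIC and 8.98 in RLKO cells, against 3.33 in WT_PIC and 8.96 in WT cells; SRD5A3 itself was not called.

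ZEB2-AS1 (ENSG00000238057, chr2:144517978-144521477, plus strand) lies inside ZEB2, the zinc finger repressor of E-cadherin, and is known for keeping a ZEB2 intron in the message that raises ZEB2 translation. It was at 1.52 FPKM in RLKO_PIC and 0.513 in RLKO cells, against 8.02 in WT_PIC and 0.303 in WT cells. ZEB2 was at 30.1 FPKM in RLKO_PIC and 11.7 in RLKO cells, against 58.8 in WT_PIC and 8.25 in WT cells. Both had their highest level in treated parental cells and the second highest in treated knockout cells. The log2 changes in WT cells were 2.46 for the antisense and 2.11 for the sense gene, and both rose (q = 0.0018 for each in the authors' deposited table). Exons of the antisense gene overlap exons of ZEB2 over 1299 bases. If the libraries were not stranded, reads over these bases could touch both values, which was not tested.

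CFLAR-AS1 (ENSG00000226312, chr2:201140278-201157823, minus strand), inside the gene of the caspase-8 inhibitor c-FLIP, was at 25.2 FPKM in RLKO_PIC and 21.0 in RLKO cells, against 97.4 in WT_PIC and 15.4 in WT cells. CFLAR itself was at 115.5 FPKM in RLKO_PIC and 106.8 in RLKO cells, against 147.5 in WT_PIC and 102.8 in WT cells, and was not called. The log2 change in WT cells on the spike-in scale was 1.99 for CFLAR-AS1 and -0.09 for CFLAR, so the antisense gene had the higher change of the pair. In FPKM as deposited both genes were higher in WT_PIC than in WT cells. Exons of CFLAR-AS1 overlap exons of CFLAR over 777 bases, where reads cannot be told apart without strand. OSMR-AS1 (ENSG00000249740, chr5:38710367-38845829, minus strand) starts 29 bases from OSMR, the gene of the oncostatin M receptor, and runs away from it. It was at 3.21 FPKM in RLKO_PIC and 1.60 in RLKO cells, against 15.6 in WT_PIC and 1.19 in WT cells. OSMR was at 28.9 FPKM in RLKO_PIC and 21.1 in RLKO cells, against 30.0 in WT_PIC and 19.1 in WT cells. The log2 change in WT cells was 2.48 for OSMR-AS1 and 0.04 for OSMR, although the genes start next to each other.

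SDCBP2-AS1 (ENSG00000234684, chr20:1325405-1378734, plus strand) was at 10.5 FPKM in RLKO_PIC and 8.41 in RLKO cells, against 45.8 in WT_PIC and 7.19 in WT cells. SDCBP2, the gene of syntenin-2, was at 1.35 FPKM in RLKO_PIC and 0.245 in RLKO cells, against 15.02 in WT_PIC and 0.192 in WT cells. Both were called higher in WT_PIC cells (q = 0.0439 and 0.0334 in the authors' deposited table). RNF144A-AS1 (ENSG00000228203), beside the gene of a ubiquitin ligase, was at 0.873 FPKM in RLKO_PIC and 0.619 in RLKO cells, against 8.24 in WT_PIC and 0.561 in WT cells. RNF139-AS1 (ENSG00000245149), which faces away from the gene of another ubiquitin ligase of the endoplasmic reticulum, was at 1.11 FPKM in RLKO_PIC and 2.11 in RLKO cells, against 9.91 in WT_PIC and 1.20 in WT cells. The change of RNF139-AS1 in RLKO cells was negative, at -0.65 on the log2 scale, and 1.87 in WT cells. SMC2-AS1 (ENSG00000270332) was at 0.700 FPKM in RLKO_PIC and 1.09 in RLKO cells, against 6.93 in WT_PIC and 0.630 in WT cells. Its sense gene SMC2, a core subunit of condensin, was at 46.7 FPKM in RLKO_PIC and 65.4 in RLKO cells, against 22.7 in WT_PIC and 46.4 in WT cells.

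The other 11 called members were RASAL2-AS1, PAN3-AS1, SCAMP1-AS1, STAM-AS1, ZNF674-AS1, ADAMTS9-AS1, INTS6-AS1, CYP1B1-AS1, TGFB2-AS1, CBR3-AS1 and PAXIP1-AS1, named in full after their values were seen. Their sense genes encode proteins as varied as a subunit of the PAN2-PAN3 deadenylase, a subunit of the Integrator complex, a cytochrome P450 and the growth factor TGF-beta 2. All 21 called members had their highest level in WT_PIC cells, and all 21 had a higher log2 change in WT than in RLKO cells. Being called higher in WT_PIC cells fixes part of this. Of the 311 members not called, 243 also had the higher change in WT cells, and WT_PIC was the highest group for 259 of all 332 members. The median level of the 21 called members was 1.52 FPKM in RLKO_PIC and 1.25 in RLKO cells, against 8.02 in WT_PIC and 0.712 in WT cells. Only 6 of the 21 reached 2 FPKM in an untreated group, and 12 reached it in WT_PIC cells only. In RLKO cells 12 of the 21 lay above 0, over a range of -0.65 to 1.17. They were spread over 13 chromosomes.

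**Figure D2:**
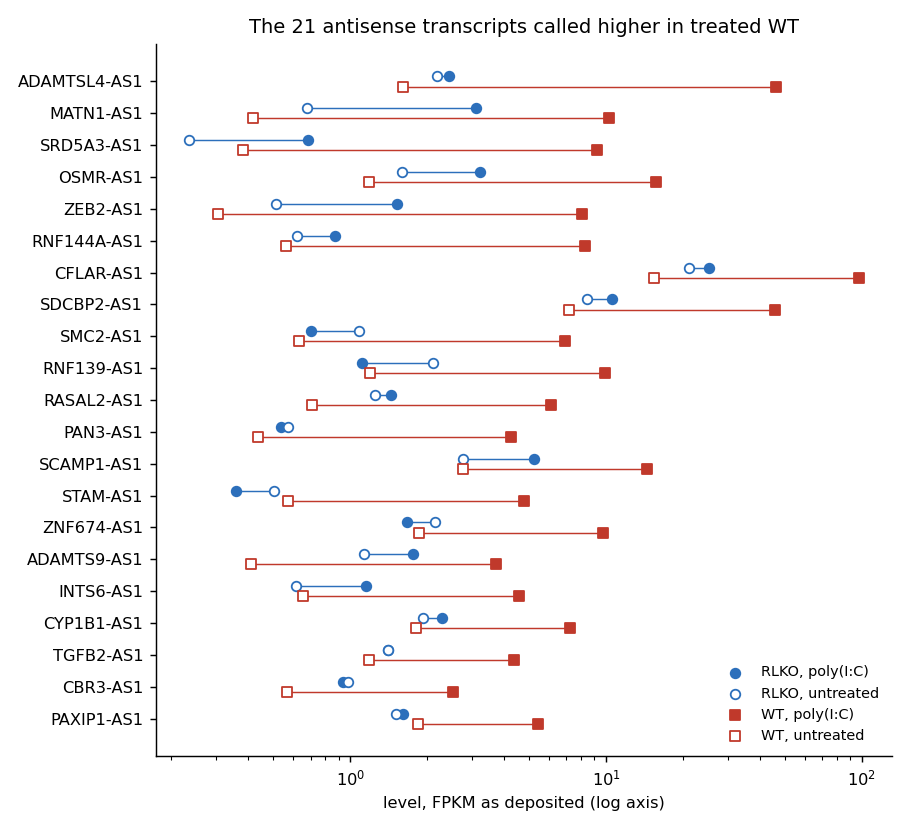
Levels of the 21 called members in FPKM as deposited, on a log axis, with RLKO cells as circles, WT cells as squares, filled symbols for poly(I:C) and open symbols for untreated cells; each symbol is the authors' single value for a group. The filled squares, treated WT cells, lie to the right of the 3 other symbols in every row, up to 97.4 FPKM for CFLAR-AS1.

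The median change in WT cells was higher for members of lower level. Levels in untreated RLKO cells were used to order the members, since that group enters neither side of the WT comparison. The 21 members under 0.5 FPKM there, 1 of them called, had a median of 1.11 and are not drawn. Between 0.5 and 2 FPKM there the median log2 change in WT cells was 0.67 (130 members), between 2 and 5 FPKM it was 0.32 (96 members), between 5 and 20 FPKM it was 0.16 (70 members), and at 20 FPKM or more it was -0.94 (15 members). Protein-coding rows had 0.40, -0.33, -0.61 and -1.32 in the same bins, so the antisense median was above the coding median in each. The lincRNA rows had 0.79, 0.10, -0.42 and -0.47, above the antisense median in the lowest and the highest bin. Below 2 FPKM the rows are ones that passed the 2 FPKM limit only through another group, for the coding and lincRNA rows as well. Among rows at 2 FPKM or more in the untreated RLKO group, where that does not apply, the medians in WT cells were 0.18 for 181 members, -0.85 for protein-coding and -0.16 for lincRNA rows. Over these 181 members the log2 change in WT cells had a Spearman correlation of -0.30 with the untreated RLKO level, a description over rows of the same libraries.

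**Figure D3:**
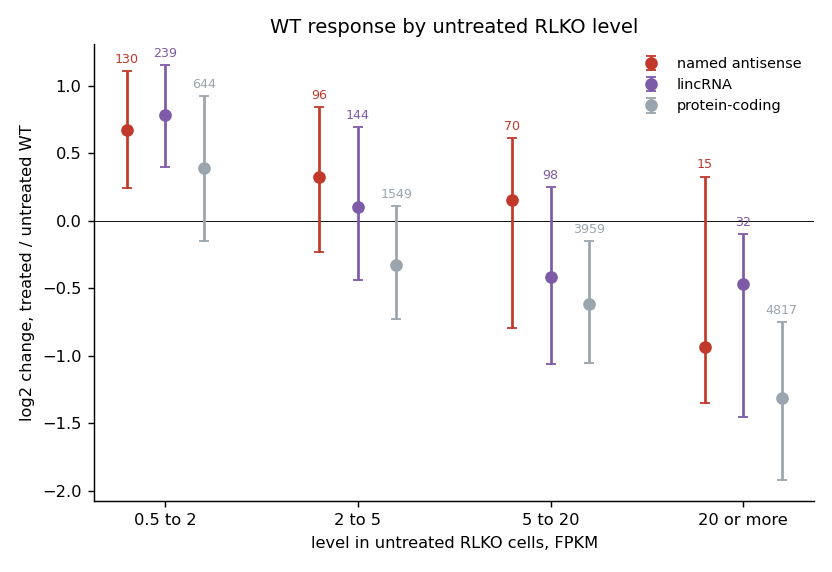
Median log2 change in WT cells (treated over untreated, spike-in scale) by the level in untreated RLKO cells in FPKM, for named antisense members (red), lincRNA rows (purple) and protein-coding rows (grey); bars span the quartiles of rows and numbers give the rows. The antisense medians run from 0.67 in the lowest bin to -0.94 in the highest, and the coding medians from 0.40 to -1.32.

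Layout was taken from GENCODE release 29 on GRCh38. Of the members, 104 overlapped their sense gene head to head, 97 lay inside it, 73 overlapped it tail to tail, 32 lay head to head and apart from it, 19 had the sense gene inside them, and IGFL2-AS1 lay tail to tail and apart. The other 6 (HOXA-AS2, HOXB-AS1, HOXB-AS2, HOXB-AS3, HOXB-AS4 and RPARP-AS1) had no row for the symbol before -AS. Head to head and apart is called the divergent layout here. In it the genes share no base and their starts lie nearer to each other than their ends. No limit was set on the distance between the starts, which was 3929 bases for DNAJC9-AS1 (ENSG00000227540). It held 10 of the 21 called members, 31.2% of its 32, against 4.81% of those overlapping head to head, 3.09% of those inside the sense gene, 5.26% of those around it and 2.74% of those tail to tail. No test was made of these shares. The divergent members nevertheless had a median log2 change of 0.11 in WT cells, below the 0.49, 0.58, 0.23 and 0.45 of the other layouts in the order just given. The divergent layout thus held both many called members and many below 0, with 17 of 32 above 0.

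Overlap with other genes moved with the calls. The whole gene body was clear of every other gene in 22 members, of which 9 (40.9%) were called higher in WT_PIC cells, and it overlapped another gene in 310, of which 12 (3.87%) were called. The median log2 change in WT cells was 0.49 in both sets. Of members with a log2 change of at least 1 in WT cells, 7 of 8 with a clear body were called, and 11 of 78 with an overlapping body. The part of overlap in the authors' test was not tested. Exons were clear of exons of the opposite strand in 90 members, with a median of 0.69 in WT cells and 11 called, and lay over such exons in 242, with a median of 0.43 and 10 called. These sets share members with the layouts. A gene with a clear body also lies apart from its sense gene, so the 9 called are among the 10 called head to head and apart. Of members with clear exons, 10 of 28 in that layout were called and 1 of 62 in the others. The median change in WT cells was not smaller among the members whose exons share no bases with exons of the other strand. Such members can still lie in introns of the sense gene, as ALG13-AS1 does. Reads from introns of the other strand were not tested.

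**Figure D4:**
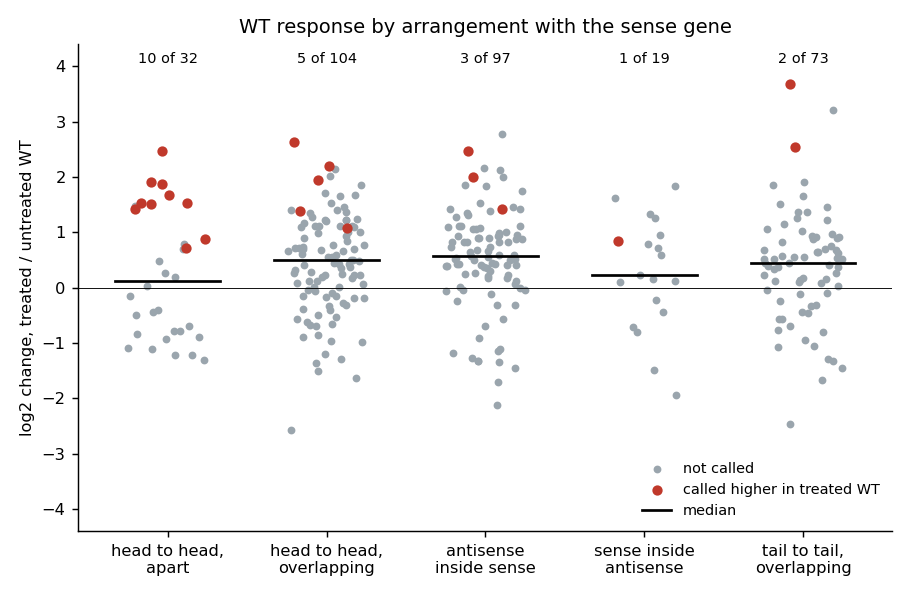
Log2 change in WT cells (treated over untreated, spike-in scale) of each member by its layout relative to the sense gene, with called members in red, others in grey and the median as a bar; the numbers above give called members out of all in the layout. Head to head and apart holds 10 called of 32 and has the lowest median of the 5 layouts drawn, 0.11.

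Of the 3 divergent pairs whose windows are printed above, 2 went opposite ways on the strands in WT cells. SCAMP1-AS1 was at 5.24 FPKM in RLKO_PIC and 2.76 in RLKO cells, against 14.5 in WT_PIC and 2.76 in WT cells. SCAMP1 was at 19.6 FPKM in RLKO_PIC and 21.7 in RLKO cells, against 10.4 in WT_PIC and 25.003 in WT cells. From starts 76 bases apart, the log2 changes in WT cells were 1.53 for SCAMP1-AS1 (called) and -1.76 for SCAMP1 (not called). ZNF674-AS1 was at 1.67 FPKM in RLKO_PIC and 2.14 in RLKO cells, against 9.70 in WT_PIC and 1.86 in WT cells, and ZNF674 at 4.44 in RLKO_PIC and 5.94 in RLKO cells, against 3.90 in WT_PIC and 4.50 in WT cells. RASAL2-AS1 was at 1.44 FPKM in RLKO_PIC and 1.25 in RLKO cells, against 6.09 in WT_PIC and 0.712 in WT cells, and RASAL2 at 11.6 in RLKO_PIC and 9.71 in RLKO cells, against 14.0 in WT_PIC and 6.81 in WT cells. The RASAL2 pair had the same sign on both strands, with log2 changes in WT cells of 1.66 for RASAL2-AS1 and 0.39 for RASAL2. None of the 3 sense genes was called.

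A sense gene with at least 1 FPKM in some group was found for 304 members, as 295 different genes, since 8 of these serve 17 members. In WT_PIC cells 18 sense genes were called higher (6.1%) and 1 lower, by the q-values of the authors' deposited table. Of the 295 sense genes 294 were protein-coding. At the higher limit of 2 FPKM, 4.4% of all rows and 3.85% of protein-coding rows were called higher. The median log2 change of the sense genes was -0.19 in RLKO and -0.50 in WT cells. With FPKM as deposited, or scaled by the median ratio over genes, the WT median of the sense genes turned to 0.07 and 0.02, while that of the antisense members stayed above 0 at 0.92 and 0.87. Over all rows the WT median was -0.52 on the spike-in scale, 0 as deposited and -0.04 with the median ratio. The antisense change minus the sense change had a median of -0.10 in RLKO and 0.84 in WT cells, and 0.73 in WT cells under both other scales. The antisense gene had the higher change in 127 of 304 pairs in RLKO and in 230 of 304 in WT cells.

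The signs of a pair were shared by 130 of 304 in WT cells. Across pairs the antisense and sense changes had a Pearson correlation of 0.30 in RLKO and 0.23 in WT cells and a Spearman correlation of 0.27 and 0.15, given as a description because all pairs share the same libraries. The Pearson correlation in WT cells was 0.20 over the 85 pairs whose antisense exons are clear of opposite-strand exons and 0.25 over the other 219. Levels were usually lower on the antisense side. These counts took in every member with a row for its sense gene, also where that gene stayed under 1 FPKM. The antisense gene had the lower FPKM in all 4 groups for 236 members and the higher FPKM in all 4 groups for 51.

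**Figure D5:**
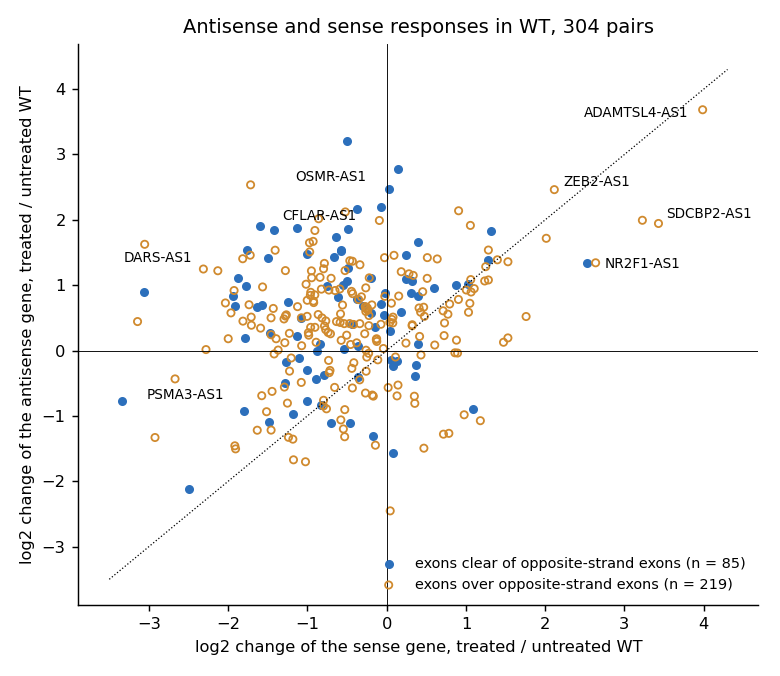
Log2 change in WT cells (treated over untreated, spike-in scale) of the sense gene across and of its antisense gene upward, for 304 pairs, with filled points where the antisense exons are clear of opposite-strand exons and open points where they are not; the dotted line marks equal changes. In 230 of the 304 pairs the antisense change is the higher, and ADAMTSL4-AS1, SDCBP2-AS1 and ZEB2-AS1 are high together with their sense genes.

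Of the 18 sense genes called higher, 4 had a called antisense gene: ADAMTSL4, INTS6, SDCBP2 and ZEB2. INTS6-AS1 was at 1.15 FPKM in RLKO_PIC and 0.614 in RLKO cells, against 4.58 in WT_PIC and 0.654 in WT cells, and INTS6 at 17.5 in RLKO_PIC and 12.6 in RLKO cells, against 39.1 in WT_PIC and 9.21 in WT cells. Their log2 changes in WT cells were nearly alike, at 1.39 and 1.40. NR2F1, which encodes an orphan nuclear receptor, was the only sense gene called in RLKO cells (q = 0.0107 in the authors' deposited table). NR2F1 was at 6.49 FPKM in RLKO_PIC and 0.760 in RLKO cells, against 22.6 in WT_PIC and 1.71 in WT cells. NR2F1-AS1, head to head with it, was at 7.65 FPKM in RLKO_PIC and 2.40 in RLKO cells, against 18.2 in WT_PIC and 4.21 in WT cells. The antisense gene had log2 changes of 1.20 in RLKO and 1.34 in WT cells, the highest of all members in RLKO cells, and was not called in either line.

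DICER1, the ribonuclease that makes microRNAs, was called higher in WT_PIC cells, with 63.3 FPKM in RLKO_PIC and 26.8 in RLKO cells, against 142.8 in WT_PIC and 22.5 in WT cells. DICER1-AS1 was at 0.772 FPKM in RLKO_PIC and 0.682 in RLKO cells, against 5.32 in WT_PIC and 0.505 in WT cells, and was not called (q = 0.128 in the authors' deposited table). ZBTB20, a zinc finger repressor, was called higher in WT_PIC cells and has 3 members inside it, ZBTB20-AS1, ZBTB20-AS2 and ZBTB20-AS5, whose log2 changes in WT cells were 1.08, 1.54 and 1.39. IDH1, the cytosolic isocitrate dehydrogenase, was the 1 sense gene called lower, with 80.5 FPKM in RLKO_PIC and 166.4 in RLKO cells, against 33.2 in WT_PIC and 169.8 in WT cells. IDH1-AS1 was at 0.283 FPKM in RLKO_PIC and 0.964 in RLKO cells, against 0.592 in WT_PIC and 2.17 in WT cells. The IDH1 pair thus had a negative change on both strands in both lines, and the antisense gene was not called. DICER1, ZBTB20 and IDH1 were named after their values were seen.

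The 8 members of highest mean FPKM over the groups, CFLAR-AS1 among them, had changes of either sign in WT cells. LRRC75A-AS1 (ENSG00000175061, chr17:16438822-16478678, plus strand), which holds the genes of the small nucleolar RNAs SNORD49A, SNORD49B and SNORD65, was at 530.8 FPKM in RLKO_PIC and 510.8 in RLKO cells, against 452.4 in WT_PIC and 622.8 in WT cells. EPB41L4A-AS1 (ENSG00000224032), which holds SNORA13, was at 64.6 FPKM in RLKO_PIC and 40.7 in RLKO cells, against 77.0 in WT_PIC and 44.3 in WT cells. The log2 changes in WT cells were -1.07 and 0.18, so these hosts of small nucleolar RNAs went different ways. SVIL-AS1 (ENSG00000224597), annotated as a transcribed pseudogene across from the gene of the actin-binding supervillin, was at 80.9 FPKM in RLKO_PIC and 157.4 in RLKO cells, against 40.2 in WT_PIC and 147.2 in WT cells. Its level was lower in treated than in untreated cells of both lines, with log2 changes of -1.13 in RLKO and -2.45 in WT cells, and was not called in WT cells (q = 0.222 in the authors' deposited table). SVIL had a log2 change of 0.04 in WT cells.

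IGFL2-AS1 (ENSG00000268621) was at 81.0 FPKM in RLKO_PIC and 152.5 in RLKO cells, against 42.8 in WT_PIC and 84.6 in WT cells. DLGAP1-AS1 (ENSG00000177337) was at 42.0 FPKM in RLKO_PIC and 62.6 in RLKO cells, against 43.6 in WT_PIC and 73.2 in WT cells. Both were lower in the treated than in the untreated cells of each line. THUMPD3-AS1 (ENSG00000206573), which has the tRNA-modification gene THUMPD3 inside it, was higher in treated parental cells, with 29.8 FPKM in RLKO_PIC and 35.3 in RLKO cells, against 170.8 in WT_PIC and 43.8 in WT cells. PSMA3-AS1 (ENSG00000257621) was at 33.3 FPKM in RLKO_PIC and 45.7 in RLKO cells, against 56.7 in WT_PIC and 50.3 in WT cells. Its sense gene PSMA3, an alpha subunit of the proteasome core, was at 259.8 FPKM in RLKO_PIC and 555.7 in RLKO cells, against 143.0 in WT_PIC and 599.0 in WT cells. The log2 changes in WT cells on the spike-in scale were -0.43 for PSMA3-AS1 and -2.67 for PSMA3, and neither was called. In FPKM as deposited PSMA3-AS1 was higher in WT_PIC than in WT cells, so its sign depends on the scale.

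The response in RLKO minus that in WT was highest for VCAN-AS1 (ENSG00000249835), inside the gene of the matrix proteoglycan versican, at 1.67. It was at 8.21 FPKM in RLKO_PIC and 7.46 in RLKO cells, against 0.613 in WT_PIC and 3.09 in WT cells. Treated parental cells were the low group here, the reverse of the called members. SVIL-AS1 (1.32), SLC8A1-AS1 (1.25), ARAP1-AS1 (1.25) and ERICH6-AS1 (1.08) followed, all with negative changes in WT cells and none called. SLC8A1-AS1, across from the gene of a sodium-calcium exchanger, was at 1.59 FPKM in RLKO_PIC and 1.53 in RLKO cells, against 1.88 in WT_PIC and 4.28 in WT cells. In all, 7 members had a difference of at least 1, and 121 members (36.4%) had a difference of -1 or less, against 46.3% of lincRNA rows, 43.6% of antisense-class rows without an -AS symbol, 19.0% of all rows and 4.20% of protein-coding rows with -1 or less.

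At the other end IQCJ-SCHIP1-AS1 (ENSG00000241211, chr3:159765387-159768612, minus strand) had a difference of -3.92. It was at 2.45 FPKM in RLKO_PIC and 5.93 in RLKO cells, against 33.7 in WT_PIC and 2.54 in WT cells. The changes had opposite signs in the lines, at -1.14 in RLKO and 2.78 in WT cells, and neither was called (q = 0.172 for WT in the authors' deposited table). USP12-AS1 (ENSG00000232162), inside the gene of a deubiquitinase, was at 0.832 FPKM in RLKO_PIC and 2.76 in RLKO cells, against 10.8 in WT_PIC and 0.955 in WT cells. LIX1L-AS1 (ENSG00000234222) was at 2.82 FPKM in RLKO_PIC and 5.66 in RLKO cells, against 19.8 in WT_PIC and 3.05 in WT cells. NUCB1-AS1 (ENSG00000235191) was at 0.157 FPKM in RLKO_PIC and 0.516 in RLKO cells, against 5.77 in WT_PIC and 0.257 in WT cells. These 4 members share the opposite signs, which choosing the lowest differences favours. None of the 4 was called in either line. In WT cells q was 0.450 for USP12-AS1, 0.067 for LIX1L-AS1 and 0.522 for NUCB1-AS1 in the authors' deposited table. Their sense genes IQCJ-SCHIP1, USP12, LIX1L and NUCB1 had log2 changes in WT cells of 0.14, -0.37, -0.91 and -0.52. Among members not called, HIF1A-AS2 had the highest change in WT cells and was named after its value was seen. HIF1A-AS2 was at 4.33 FPKM in RLKO_PIC and 1.34 in RLKO cells, against 21.4 in WT_PIC and 0.812 in WT cells (q = 0.163 in the authors' deposited table). Its exons share no bases with exons of the opposite strand.

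Among 28 members with published functions, 1 (ZEB2-AS1) was called higher in WT_PIC cells, beside 6.33% of all members. Their median log2 change was -0.26 in RLKO and 0.05 in WT cells. Of their 23 measured sense genes 3 were called higher; the share called higher was 4.4% over all rows and 6.1% over all measured sense genes. The most abundant after EPB41L4A-AS1 diverged from each other. GABPB1-AS1, beside the gene of a subunit of the transcription factor GABP, was at 18.6 FPKM in RLKO_PIC and 24.6 in RLKO cells, against 83.9 in WT_PIC and 23.0 in WT cells. MAPKAPK5-AS1, beside a protein kinase gene, was at 18.7 FPKM in RLKO_PIC and 42.7 in RLKO cells, against 30.6 in WT_PIC and 52.4 in WT cells. FGD5-AS1 was at 34.1 FPKM in RLKO_PIC and 36.1 in RLKO cells, against 22.3 in WT_PIC and 36.6 in WT cells. Their log2 changes in WT cells were 1.22, -1.36 and -1.28, and none was called.

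Only 4 members lie across from a gene of the antiviral, inflammatory or immediate early list, and 0 of them were called by Cuffdiff, also in RLKO cells. Of all members 6.33% were called higher in WT_PIC cells, and of all rows 4.4%. The median log2 change of these 4 members in WT cells was 0.50. TRAF3IP2-AS1, across from the gene of an adaptor of the interleukin-17 receptor, was at 3.95 FPKM in RLKO_PIC and 3.72 in RLKO cells, against 9.84 in WT_PIC and 3.91 in WT cells. LIF-AS1 was at 0.479 FPKM in RLKO_PIC and 0.883 in RLKO cells, against 2.53 in WT_PIC and 0.494 in WT cells. Its sense gene LIF, a cytokine of the interleukin-6 family, was called higher, with 33.4 FPKM in RLKO_PIC and 25.8 in RLKO cells, against 66.0 in WT_PIC and 21.1 in WT cells. SOCS2-AS1, beside the gene of a suppressor of cytokine signalling, and TNFRSF10A-AS1, across from that of a TRAIL receptor, had log2 changes in WT cells of 0.11 and 0.38. The antisense genes of this list were thus above 0 in WT cells in 4 of 4, over a range of 0.11 to 0.93, as were 71.1% of all members.

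Of 34 members whose sense symbol begins like that of a transcription factor family, 3 were called higher in WT_PIC cells (PAXIP1-AS1, ZEB2-AS1 and ZNF674-AS1), beside 6.33% of all members. The median of the 34 was 0.62 in WT cells, and 5 of 26 sense genes were called higher, beside 4.4% of all rows and 6.1% of all measured sense genes. The symbol prefixes also took in PAXIP1 and KMT2E, which encode chromatin-associated proteins rather than factors that bind specific sites. KMT2E-AS1 was at 3.70 FPKM in RLKO_PIC and 3.79 in RLKO cells, against 30.9 in WT_PIC and 3.97 in WT cells, and was not called (q = 0.511 in the authors' deposited table). The log2 changes in WT cells were 2.14 for KMT2E-AS1 and 0.91 for KMT2E, which was called higher. HOXB-AS3 was at 11.7 FPKM in RLKO_PIC and 17.9 in RLKO cells, against 23.7 in WT_PIC and 13.4 in WT cells. ZFPM2-AS1 and ZNF213-AS1 had log2 changes in WT cells of 0.10 and 0.72.

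Of 9 members across from genes of mitochondria or protein synthesis, 0 were called by Cuffdiff, beside 6.33% of all members called higher in WT_PIC cells. Their median in WT cells was 0.51, against -1.40 for their sense genes, of which 1 was called higher (SLC25A25) and 1 lower (IDH1). The list took in IDH1 although its enzyme is cytosolic. DARS-AS1 was at 1.30 FPKM in RLKO_PIC and 0.675 in RLKO cells, against 5.29 in WT_PIC and 0.997 in WT cells. DARS, the aspartyl-tRNA synthetase gene, was at 87.8 FPKM in RLKO_PIC and 113.4 in RLKO cells, against 39.9 in WT_PIC and 132.5 in WT cells. The strands went apart in WT cells, with log2 changes of 1.25 for DARS-AS1 and -2.31 for DARS. EIF1AX-AS1 and its host EIF1AX, a translation initiation factor gene, had log2 changes in WT cells of 1.42 and -1.49. NDUFV2-AS1 and NDUFV2, a complex I subunit gene, had 0.51 and -1.71. COX10-AS1, which starts 1 base from COX10, had 0.03, against -0.54 for COX10. Of these members and their sense genes only IDH1 and SLC25A25 passed the q threshold of 0.05.

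The 21 called members had a median transcript length of 2188 bases, against 1656 bases for the 311 others. UU and UA, the pairs of bases at which RNase L prefers to cut, made up a median of 13.2% of dinucleotides in called members and 11.1% in the others, and GC content was 43.2% against 45.2%. Over all 332 members the Spearman correlation of the WT change with the UU and UA share was 0.12, with GC content -0.10 and with length -0.05, as a description over rows of the same libraries. Transcription running on from a neighbour was looked at through the nearest expressed gene upstream on the same strand that did not overlap the member. Such a gene lay within 10000 bases of 3 of 21 called members (14.3%) and of 57 of the 311 others (18.3%). It was itself called higher in WT_PIC cells for 0 of the 3 and for 3 of the 57. Genes overlapping a member on its own strand were left out of these counts, MCL1 at ADAMTSL4-AS1 among them. A coding gene overlapped 16 members in this way, 1 of them called, and transcription running on from such genes was not tested.

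RefSeq promoter windows on GRCh38.p14 were matched to 221 members, 13 of them called. The window held the start of the sense gene in 31 members, 3 of them called, which are the windows printed above. The core of the interferon-stimulated response element, GAAA, any 2 bases and GAAA again on either strand, was found in 4 member windows (1.81%) and 0 called ones, against 3.57% of all 35116 promoter windows. The AP-1 element TGANTCA was in 8.14% of member windows, with CBR3-AS1 the 1 called match, against 7.71% of all. The cAMP response element TGACGTCA was in 2.71%, with 0 called matches, against 1.85% of all. The letters TATAAA were in 7.69% of member windows, with CYP1B1-AS1 the 1 called match, against 11.5% of all. No motif searched contains another, and a match is a description of these letters only. Median GC content of the windows was 65% for called members and 62% for the 221, against 58.7% for all promoters.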

How the data were processed

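Total RNA of 12 samples was sequenced after rRNA depletion with ERCC spike-in RNA, per the labels. FastQC, Trimmomatic 0.32, TopHat2 2.0.6, Bowtie2 2.0.2, Cuffdiff 2.2.1 and the build GRCh38.p12 were used, per the submitters' processing notes. Per the file headers, the authors deposited 1 FPKM value per group and the p-values and q-values of their own test. The deposited table also gives transcript length in bases, GC content in percent and a half-life, which had a value for 1 member only. Depth is unknown. Planned tests across samples could not be made, and a row was called where the authors' q was under 0.05. Groups were put on the spike-in scale by their median ratio over the 49 ERCC rows averaging 1 FPKM or more; log2 changes used a pseudocount of 1. Cuffdiff marked 86 rows HIDATA, and 45 rows repeat an identifier; both sets were left out. Gene classes and layout came from GENCODE release 29, and promoters from RefSeq. The members and lists were chosen with earlier results of these data known. Members were named by rule: the 10 highest log2 changes among those called, the 8 most abundant, the 5 highest and 5 lowest differences between the lines, up to 4 of each list, and those beside the limit. The level of a further gene is not reported here. Scripts ran in Python 3.11.15 and were checked on simulated data.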

Additional observations from a re-analysis of the deposited data

How the results depend on the processing

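Samples were pooled into 1 value per group and Cuffdiff's p-values cover the spread the authors entered, so no error of a median or of a difference between the lines can be given, and low levels limit the precision of most members. Values counted as unmoved stayed within 0.1 on the log2 scale, or within 1.5 times for counts; 54 did, 33 moved and 4 reversed, and the cause was not tested. No paired analysis was possible because the table has 1 column per group and no replicate numbers; leaving out a replicate was not run for the same reason. Antisense calls in RLKO cells were 0 under every alternative run.

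Requiring 2 FPKM in an untreated group (202 members) left 6 antisense and 9 sense genes called in WT cells. The 6.33% of all 332 members called there thus rests mostly on members under the limit in both untreated groups. No share of all rows was taken under this rule. When only the untreated RLKO level counted toward the limit, 6 of 181 members were called higher in WT_PIC cells. That limit gave 219 of 10325 protein-coding and 10 of 274 lincRNA rows. The 202 members had antisense medians of -0.39 in RLKO and 0.094 in WT cells and a median difference between the lines of -0.43. Their median antisense minus sense change was 0.46 in WT cells. With no level filter (1220 rows) these antisense medians were -0.026, 0.040 and -0.097, sense calls were 2 in RLKO and 42 in WT cells, and the antisense minus sense median in RLKO cells turned to 0.031. At 5 FPKM 11 sense genes were called in WT cells. At q under 0.1, 2 sense genes were called in RLKO and 29 in WT cells. Members with exons clear of opposite-strand exons gave 11 antisense calls in WT cells, 0 sense calls in RLKO and 3 in WT cells, an antisense median of 0.69 in WT cells and a difference of -0.96. A pseudocount of 0.1 gave antisense medians of -0.43 in RLKO and 0.67 in WT cells, a difference of -1.05, and antisense minus sense medians of -0.22 and 0.98. FPKM as deposited gave antisense medians of -0.17 in RLKO and 0.92 in WT cells, a difference of -1.12, sense medians of -0.024 and 0.072, and an antisense minus sense median of 0.73 in WT cells. Median-ratio scaling gave antisense medians of -0.052 and 0.87, a difference of -0.94, sense medians of 0.13 and 0.017, and an antisense minus sense median of 0.73 in WT cells. The sense medians under other settings were added after the data were seen.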

Other observations

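Untreated RLKO and WT cells, a comparison for which the table holds no p-value, differed over the members by a median of -0.09 (log2, RLKO minus WT), against -0.19 over all rows at 2 FPKM or more. Single members ranged from -1.48 to 1.68, and 8 differed by at least 1. Between the treated groups, RLKO_PIC minus WT_PIC, the median was -0.79 for the members, -0.96 for lincRNA rows, -0.88 for antisense-class rows without an -AS symbol, 0.08 for all rows and 0.30 for protein-coding rows. By gene class, 7 of 31 members annotated as lincRNA (22.6%) were called higher in WT_PIC cells, with a median log2 change in WT cells of 0.90. So were 5 of 40 annotated as processed transcripts (12.5%), with a median of 0.51, and 9 of 252 annotated as antisense (3.57%), with a median of 0.48. The share was 20% of lincRNA rows that are not members, 4.15% of antisense-class rows without an -AS symbol and 4.4% of all rows. The 23 members with a single exon had a median of 0.72 in WT cells, against 0.45 for the 309 with more exons. Of them 3 and 18 were called, beside 6.33% of all members and 4.4% of all rows.

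PRR34-AS1, chosen after its value was seen, had the lowest log2 change of the members in both lines, at -1.66 in RLKO and -2.56 in WT cells. PRR34-AS1 was at 7.68 FPKM in RLKO_PIC and 23.5 in RLKO cells, against 6.81 in WT_PIC and 30.1 in WT cells, and was not called (q = 0.474 for WT in the authors' deposited table). PCBP1-AS1, chosen in the same way, has the whole gene of the RNA-binding protein PCBP1 inside it. It was at 15.7 FPKM in RLKO_PIC and 15.3 in RLKO cells, against 65.4 in WT_PIC and 17.5 in WT cells. PCBP1 was at 103.2 FPKM in RLKO_PIC and 122.5 in RLKO cells, against 101.8 in WT_PIC and 116.0 in WT cells, and neither gene was called.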
